A study of Mus musculus with 24 samples.

Results

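The 34 genes described here encode enzymes of cholesterol and fatty acid synthesis and the proteins that control them. They were taken by name from the table of gene counts, where each gene is keyed by an Entrez identifier, and all 34 were found among its 24454 genes. The study asked how pioglitazone, an antidiabetic drug that activates the nuclear receptor PPARγ, and gentamicin, an aminoglycoside antibiotic that damages auditory hair cells, change transcription in the organ of Corti (OC), the sensory epithelium of the cochlea. OCs from C57BL/6N mice of both sexes, 5 days old, were held for 24 h in medium with 10% fetal calf serum. They were then cultured for 6 or 24 h without drug (CTRL), with 50 µM gentamicin (GM), with 10 µM pioglitazone (PIO) or with both drugs at these concentrations (PIO+GM). All mice were wild type, and every culture, controls included, had the same preculture. Each of the 8 groups held 3 RNA sequencing libraries, 24 in all. The study's methods count 6 explants for a condition. The p-values measure the spread between these libraries, and nothing in the labels says whether they came from separate litters.

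Cells make cholesterol from acetyl-CoA through mevalonate, isoprenoid units, squalene and lanosterol. When sterol in the endoplasmic reticulum runs low, SCAP escorts SREBP transcription factors to the Golgi, where they are cut and released to switch on these enzymes, and when sterol is plentiful the INSIG proteins hold SCAP back. Fatty acid synthesis starts from the same acetyl-CoA and feeds elongases and desaturases. The genes are given by role in 5 sets. The mevalonate arm has 7 genes and the steps from squalene to cholesterol 11. SREBP control and sterol transport has 5, acetyl-CoA supply with NADPH and fatty acid synthesis 6, and elongation and desaturation 5.

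The libraries held between 7211357 and 15548856 counted reads, with a median of 12538495. Several kinds of difference between libraries touch the results below. In 3 libraries at 6 h, PIO replicate 2 and PIO+GM replicates 2 and 3, genes with GC-rich transcripts were low (Spearman correlation of a library's deviations with GC content between -0.68 and -0.49 across genes, a description of each library). These are called the low-GC libraries. In 8 libraries, 1 in each group, the mean of 6 stria vascularis markers was 4.22 to 5.46 log2 CPM (counts scaled to the library total), against 1.17 to 2.87 in the other 16. At 24 h these were the replicate 2 libraries of all 4 treatments. All 12 hair cell and all 11 supporting cell markers were measurable in these OC libraries, whereas of 6 adipocyte markers 1 passed the filter on low counts and none had more than 11 counts in any library. The means of 13 Schwann cell markers were 4.33 to 6.90 log2 CPM at 6 h and 3.78 to 5.40 at 24 h, and those of 11 macrophage markers 1.90 to 3.44 and 2.39 to 4.07. In bulk libraries, fewer cells of a type and less RNA per cell cannot be told apart.

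The promoters of the genes that the results turn on are shown first, because SREBPs act with the CCAAT-binding factor NF-Y at genes of this pathway. RefSeq entries (build GRCm38.p6) were given for 27 of the 34 genes, and the 150 bases before the transcription start were searched on both strands. Fads1, Fdft1, Fdps, Scd1, Scd2, Sqle and Stard4 had no entry. The letters CCAAT were found in 19 of 27 genes, that is in 55.9% of 34 gene windows against 24.5% of all 32851 windows of this length. Of sterol response elements only the exact form TCACNCCAC was searched, and it was found at Hmgcs1 alone (2.94% of the windows of these genes, 0.639% of all). Other forms of the element were not searched, so that the other promoters cannot be said to lack one. The E-box CACGTG occurred at Hsd17b7, Insig1, Sc5d and Scap (11.8% and 4.3%), and the GC box GGGCGG at 20 genes (64.7% and 28.6%). All windows had a median GC content of 54.0%, and the 8 shown ranged from 58.7% to 71.3%. In the sequences, read 5′ to 3′ in the direction of the gene, capitals mark CCAAT, TCACNCCAC or CACGTG or their reverse complements, and the GC box is left in lower case. Hmgcs1 (chr13:119690201-119690350, plus strand) is the gene where TCACNCCAC was found. Idi1 (chr13:8885456-8885605, plus strand), Cyp51 (chr5:4104698-4104847, minus strand) and Msmo1 (chr8:64733579-64733728, minus strand) fell most from 6 to 24 h, and Tm7sf2 (chr19:6067851-6068000, minus strand) and Fads2 (chr19:10101504-10101653, minus strand) rose most. Acat2 (chr17:12960726-12960875, minus strand) was higher with pioglitazone at 6 h, and Hsd17b7 (chr1:169969206-169969355, minus strand) differed most with gentamicin at 24 h.
Hmgcs1: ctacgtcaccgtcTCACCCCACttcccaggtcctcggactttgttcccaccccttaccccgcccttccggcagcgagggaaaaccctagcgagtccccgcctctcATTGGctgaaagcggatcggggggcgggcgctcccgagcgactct
Idi1: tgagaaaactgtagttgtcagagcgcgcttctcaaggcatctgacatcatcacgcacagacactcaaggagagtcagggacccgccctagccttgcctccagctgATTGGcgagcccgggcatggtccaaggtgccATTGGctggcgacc
Cyp51: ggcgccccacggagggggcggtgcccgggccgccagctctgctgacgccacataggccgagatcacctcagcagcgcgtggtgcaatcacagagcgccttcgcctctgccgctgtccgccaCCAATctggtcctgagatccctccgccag
Msmo1: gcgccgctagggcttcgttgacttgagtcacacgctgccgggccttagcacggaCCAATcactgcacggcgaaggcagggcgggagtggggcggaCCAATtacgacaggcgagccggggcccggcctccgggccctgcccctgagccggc
Tm7sf2: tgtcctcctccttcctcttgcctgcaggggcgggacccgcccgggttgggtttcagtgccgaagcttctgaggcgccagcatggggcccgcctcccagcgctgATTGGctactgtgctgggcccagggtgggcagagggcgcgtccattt
Fads2: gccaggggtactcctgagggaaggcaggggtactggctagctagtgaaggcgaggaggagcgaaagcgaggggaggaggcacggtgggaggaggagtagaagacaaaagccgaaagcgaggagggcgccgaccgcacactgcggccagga
Acat2: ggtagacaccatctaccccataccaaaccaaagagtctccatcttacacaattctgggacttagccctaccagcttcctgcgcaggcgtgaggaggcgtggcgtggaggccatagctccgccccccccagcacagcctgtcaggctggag
Hsd17b7: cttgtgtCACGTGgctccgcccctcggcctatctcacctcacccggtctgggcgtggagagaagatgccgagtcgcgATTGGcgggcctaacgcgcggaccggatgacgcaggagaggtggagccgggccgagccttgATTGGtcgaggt

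Set beside the change over time described below, a CCAAT box was found in 7 of the 8 genes with an entry that rose, in 5 of 11 that fell and in 7 of 8 that did not pass the test. Among the sequences shown, Idi1 and Msmo1, which fell, and Hsd17b7 each carried 2 such boxes, Hmgcs1 and Cyp51, which fell, and Tm7sf2, which rose, carried 1 each, and Fads2 and Acat2 carried none.

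Levels per transcript length (RPKM, mean of 24 libraries) ranged from 1.36 for Acacb to 333 for Scd2. Scd2, a stearoyl-CoA desaturase that makes monounsaturated fatty acids, stood far above the rest at 333 RPKM. Acly, the citrate lyase that supplies cytosolic acetyl-CoA, followed at 63.3 RPKM and Fasn, the fatty acid synthase, at 59.0 RPKM. Scd1, the related desaturase, had 45.6 RPKM and Hmgcs1, the cytosolic HMG-CoA synthase, 44.0 RPKM. The lowest were Ebp, a sterol isomerase, at 6.12 RPKM, Idi1, the isopentenyl diphosphate isomerase, at 5.61 RPKM, and Acacb, the acetyl-CoA carboxylase of the mitochondrial surface, at 1.36 RPKM. Each of the 34 genes passed the filter on low counts, and the fewest counts for any of them in a library were 33, for Acacb.

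Within a group, libraries differed least for Acaca, the cytosolic acetyl-CoA carboxylase (pooled SD 0.09 on the log2 CPM scale), Acly (0.13) and Acat2, the cytosolic acetoacetyl-CoA thiolase (0.14). They differed most for Hsd17b7, a ketosteroid reductase of late cholesterol synthesis (0.55), Acacb (0.44), Idi1 (0.43) and Scd1 (0.41). At 24 h the 4 libraries with high stria markers had Me1, the malic enzyme that supplies NADPH, at 5.88 to 6.06 log2 CPM, below the 6.37 to 7.24 of the other 8. Acacb lay above in the same libraries (3.98 to 4.43 against 3.39 to 3.96). The map of all genes and libraries shows these columns and the break between 6 and 24 h.

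**Figure D1:**
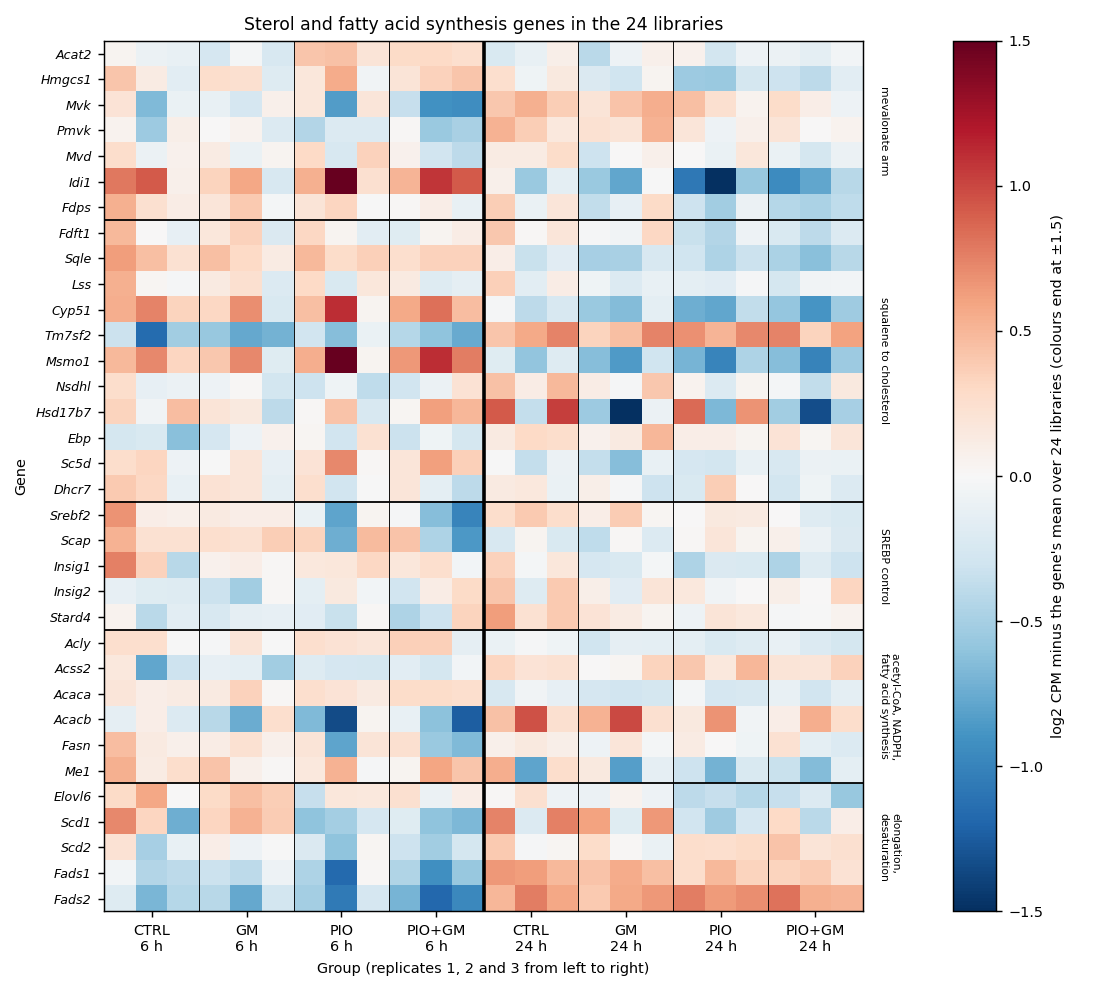
Levels of the 34 genes (rows, by role) in the 24 libraries (columns, by group, replicates 1 to 3 from left to right), as log2 CPM minus the gene's mean over all libraries, with red above and blue below that mean and colours ending at 1.5. Idi1, Cyp51 and Msmo1 are red in most libraries at 6 h and blue in most at 24 h, GM 6 h replicate 3 being blue for all of them, and Tm7sf2, Fads1 and Fads2 are mostly the reverse.

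From 6 to 24 h of treatment, averaged over the 4 treatments, 24 of the 34 genes changed (70.6%, edgeR's quasi-likelihood test, adjusted p under 0.05). Among all 16317 genes tested this share was 62.6%, so that the 34 genes were near the background. Of the 24, 11 rose and 13 fell, where 31.9% of all genes rose and 30.7% fell. The median log2 fold change of the 34 was -0.11, and that of all genes 0.02. The largest falls were in the sterol enzyme genes Idi1, Msmo1 and Cyp51 and the largest rises in the desaturase gene Fads2 and the sterol reductase gene Tm7sf2. In 5 genes the 12 libraries at 24 h did not overlap the 12 at 6 h (12.4% of all genes), with Fads2, Tm7sf2 and Fads1 higher and Sqle and Acaca lower. Of cell type markers, 9 of 13 Schwann cell (median -1.34) and 6 of 8 neuron markers (-1.03) fell. Rises were called for 6 of 9 cycling cell (0.91, 1 fell), 6 of 11 macrophage (0.56) and 5 of 10 fibroblast markers (0.39, 1 fell). The same held for 5 of 11 supporting cell (0.33) and 5 of 12 hair cell markers (0.25, 2 fell). Of 6 endothelial markers 1 fell (0.19), and of 6 stria markers 0 passed (0.17). Their part was not tested.

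In the mevalonate arm, 2 of 7 genes rose and 4 fell. Idi1 had its lowest, median and highest library at 3.59, 4.38 and 5.36 log2 CPM at 6 h and at 2.29, 3.27 and 3.91 at 24 h, so that the ranges overlapped. It fell by 1.24 on the log2 scale (SE 0.17, adjusted p = 3.37e-06). Its counts are uncertain, since 20.6% of its 76-base transcript windows recur in other annotated genes. Hmgcs1 went from 7.08, 7.49 and 7.83 to 6.72, 7.03 and 7.53 log2 CPM. It fell by 0.40 (SE 0.08), and these ranges overlapped widely. Acat2 fell by 0.20 and Fdps, the farnesyl diphosphate synthase, by 0.32. Mvk and Pmvk, the kinases that phosphorylate mevalonate, moved the other way. Mvk ranged from 2.92 to 4.06 with a median of 3.68 log2 CPM at 6 h and from 3.78 to 4.40 with a median of 4.18 at 24 h (log2 fold change 0.56, SE 0.12). Pmvk changed by 0.40 (SE 0.09). Mvd, the next enzyme, did not pass the test (-0.03, SE 0.08).

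Of the 11 genes from squalene to cholesterol, 2 rose and 4 fell. Sqle, the squalene epoxidase (chr15:59315092-59331193), had 6.43, 6.64 and 6.92 log2 CPM at 6 h (lowest, median and highest of 12 libraries) and 5.67, 5.92 and 6.40 at 24 h. Every library at 24 h lay below every library at 6 h, and the log2 fold change was -0.71 (SE 0.06, adjusted p = 1.51e-08, edgeR's quasi-likelihood test). Cyp51, the lanosterol demethylase, went from 6.19, 6.92 and 7.52 to 5.53, 5.87 and 6.40 log2 CPM, with an overlap of the ranges. It fell by 1.00 (SE 0.12), and Msmo1, the next demethylase, fell by 1.22 (SE 0.14). Msmo1 had 5.75, 6.53 and 7.45 log2 CPM at 6 h and 4.93, 5.32 and 5.75 at 24 h, and GM 6 h replicate 3 was the 1 library at 6 h that fell within the range at 24 h. Sc5d, the lathosterol desaturase, fell by 0.45 (SE 0.09).

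Between Cyp51 and Msmo1 in the pathway stands Tm7sf2, a sterol reductase, and it rose. Its lowest, median and highest libraries had 2.60, 3.16 and 3.65 log2 CPM at 6 h and 4.08, 4.33 and 4.50 at 24 h. No libraries overlapped, and the log2 fold change was 1.14 (SE 0.10, adjusted p = 7.28e-09, edgeR's quasi-likelihood test). Its count is uncertain in part, as 12.1% of its exon bases are shared with Vps51 on the same strand. Ebp rose by 0.34 (SE 0.08), from a median of 3.18 to 3.55 log2 CPM. The remaining members of the set did not pass the test: Fdft1, the squalene synthase (-0.15), Lss, the lanosterol synthase (-0.14), Nsdhl (0.20, adjusted p = 0.0522), Hsd17b7 (-0.25) and Dhcr7, the last reductase (-0.08).

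**Figure D2:**
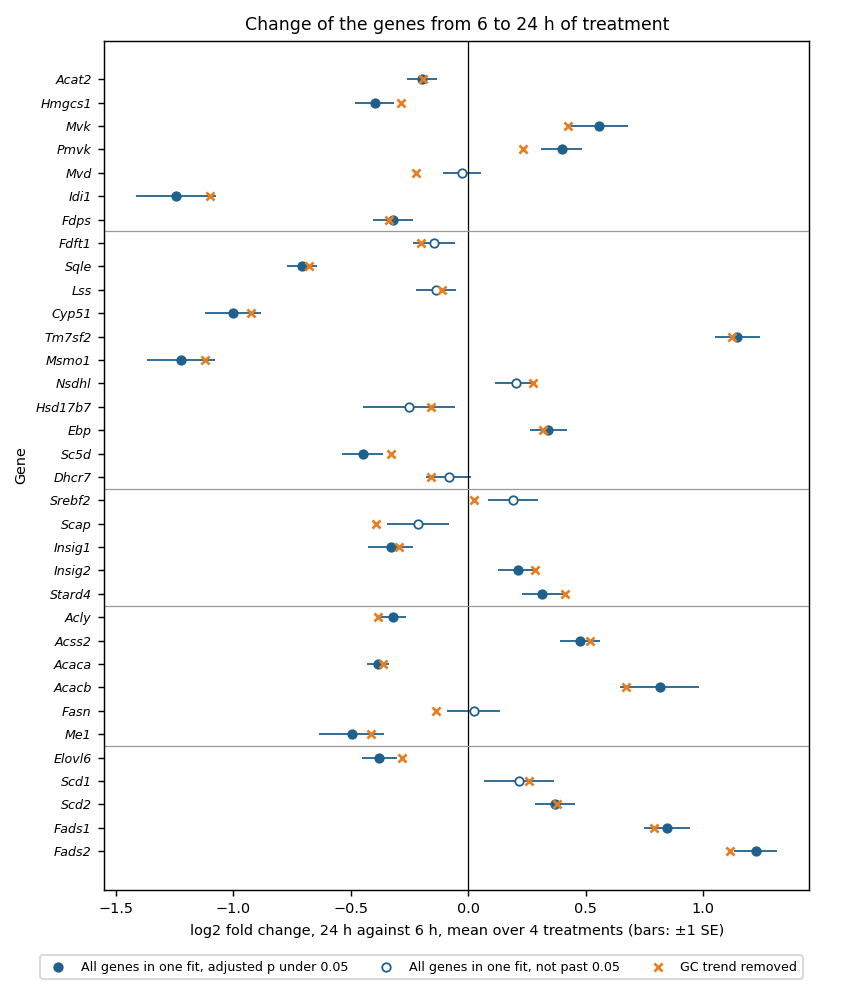
Log2 fold change from 6 to 24 h for each gene, averaged over the 4 treatments (horizontal axis), with bars of 1 SE, filled circles where the adjusted p was under 0.05, open circles elsewhere, and crosses for the change after each library's trend with GC content was removed. Idi1 (-1.24), Msmo1 (-1.22) and Cyp51 lie farthest left and Fads2 (1.22) and Tm7sf2 (1.14) farthest right, and the crosses of these genes stay on the same side.

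Of the 5 genes of SREBP control and sterol transport, 2 rose and 1 fell. Srebf2, which encodes the SREBP most tied to sterol synthesis (chr15:82147269-82205379), ranged from 5.45 to 7.11 log2 CPM at 6 h and from 6.21 to 6.83 at 24 h, and the change did not pass the test (0.19, SE 0.11). Scap had -0.21 (SE 0.13), also short of the threshold. Insig1, itself a sensitive SREBP target, had 5.22, 5.80 and 6.39 log2 CPM at 6 h and 5.17, 5.42 and 5.99 at 24 h. These ranges overlapped widely, and it fell by 0.33 (SE 0.09). Insig2, its partner, rose by 0.21 (adjusted p = 0.0392, edgeR's quasi-likelihood test), a call that held in 12 of 24 fits with 1 library left out, in which the adjusted p reached 0.0811. Stard4, a sterol carrier, rose by 0.31 (SE 0.09).

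In fatty acid synthesis, Acaca had 7.01, 7.19 and 7.34 log2 CPM at 6 h and 6.71, 6.75 and 6.96 at 24 h, with no overlap. It fell by 0.38 (SE 0.05, adjusted p = 7.73e-07, edgeR's quasi-likelihood test), but 47.2% of its 76-base windows recur in the gene Gm5182. Acly fell by 0.32 (SE 0.06) and Me1 by 0.50 (SE 0.14), though 18.7% of the 76-base windows of Me1 recur in Gm7049 and Gm7329. Acacb rose by 0.81 (SE 0.17) and Acss2, which makes acetyl-CoA from acetate, by 0.47 (SE 0.09). Fasn did not pass the test, with 8.38, 9.29 and 9.64 log2 CPM at 6 h and 8.97, 9.21 and 9.40 at 24 h (0.02, SE 0.11). The 3 lowest of its libraries at 6 h, at 8.38, 8.51 and 8.61, were the low-GC libraries.

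The desaturases of polyunsaturated fatty acids, which lie side by side on chromosome 19, rose together. Fads2 had 4.62, 5.20 and 5.61 log2 CPM at 6 h and 6.18, 6.41 and 6.61 at 24 h (log2 fold change 1.22, SE 0.09, adjusted p = 1.79e-09, edgeR's quasi-likelihood test). Fads1 (chr19:10182877-10196874) went from 5.70, 6.45 and 6.89 to 7.08, 7.31 and 7.52 log2 CPM, a change of 0.84 (SE 0.10). Neither gene's libraries overlapped between the times. Scd2 (chr19:44293676-44306864) had 10.20, 10.64 and 11.01 log2 CPM at 6 h and 10.70, 11.04 and 11.23 at 24 h. It rose by 0.37 (SE 0.09), whereas Scd1 (chr19:44394450-44407709) spanned 6.96 to 8.42 and then 7.16 to 8.45 and did not pass the test (0.21, SE 0.15). Elovl6, which lengthens palmitate, fell by 0.38 (SE 0.08). Scd1 and Scd2 share 3.22% and 1.77% of their 76-base windows with other genes, each other included.

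Within each treatment, the change over time passed the test for 10 genes in CTRL (6 rose and 4 fell), 7 in GM (3 and 4), 16 in PIO (5 and 11) and 18 in PIO+GM (6 and 12). In CTRL 28% of all genes were called (14.8% rose and 13.2% fell). The shares were 24.2% in GM (12.5% and 11.7%), 29% in PIO (13.2% and 15.8%) and 34.6% in PIO+GM (17.6% and 17%). Sqle, Cyp51, Tm7sf2, Msmo1, Acaca, Fads1 and Fads2 passed in all 4 treatments. With each library left out in turn, Sqle, Tm7sf2 and Fads2 kept these calls. Msmo1 lost its call in 5 of 6 such fits in CTRL and 4 of 6 in GM, and Cyp51 in 3 and 4. Acaca lost it in 5 of 6 in CTRL and Fads1 in 1 of 6 in GM. In both treatments with pioglitazone, and in neither without, Idi1, Hmgcs1, Acat2, Sc5d and Acly passed as lower and Scd2 as higher (0.51 in PIO and 0.65 in PIO+GM). The log2 fold change of Idi1 was -0.83 in CTRL, -0.67 in GM, -1.90 in PIO and -1.56 in PIO+GM, and that of Hmgcs1 was -0.03, -0.27, -0.69 and -0.61. Acat2 had -0.03, 0.05, -0.45 and -0.37. Msmo1 had -0.83, -0.94, -1.54 and -1.58, with negative values throughout, and in PIO it had -1.02 without PIO 6 h replicate 2. Idi1 and Hmgcs1 kept their calls in PIO and PIO+GM with each library left out in turn, whereas Acat2, Sc5d, Acly and Scd2 each lost a call in at least 1 such fit. The low-GC libraries all stand at 6 h in PIO and PIO+GM. Over all genes the log2 fold change over time had a Spearman correlation with GC content of 0.31 in PIO and 0.35 in PIO+GM. In CTRL it was 0.03 and in GM 0.07. Over the 34 genes it was 0.30 in CTRL, 0.45 in GM, 0.49 in PIO and 0.63 in PIO+GM. The part of these libraries in the calls was not tested.

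Whether these changes differed with pioglitazone was tested directly, as the averaged effect of the drug at 24 h minus that at 6 h. With edgeR's quasi-likelihood test 0 of the 34 genes passed (0.00613% of all genes), as with DESeq2, and 7 had an unadjusted p under 0.05, against 10.1% of all genes. The lowest p-values belonged to Acat2 (-0.42, SE 0.13, adjusted p = 0.369), Hmgcs1 (-0.50, SE 0.17, adjusted p = 0.409) and Idi1 (-0.98, SE 0.34, adjusted p = 0.429). A difference in the change over time with pioglitazone was therefore not shown for any of the 34 genes, and gentamicin by time was not tested. Leaving out 1 library took the count in CTRL to 5 without CTRL 6 h replicate 2 and to 6 without CTRL 24 h replicate 1, and in GM to 4 without GM 6 h replicate 2. It took the count in PIO to 10 without PIO 24 h replicate 2, and in PIO+GM to 11 without PIO+GM 6 h replicate 2 or PIO+GM 24 h replicate 1. The number of all genes called moved too, from 2665 to 4274 in CTRL and 2149 to 3732 in GM over these fits. It ranged from 2658 to 6055 in PIO and from 3453 to 6103 in PIO+GM. In the fit of all libraries the numbers were 4564, 3954, 4731 and 5646 in the same order.

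**Figure D3:**
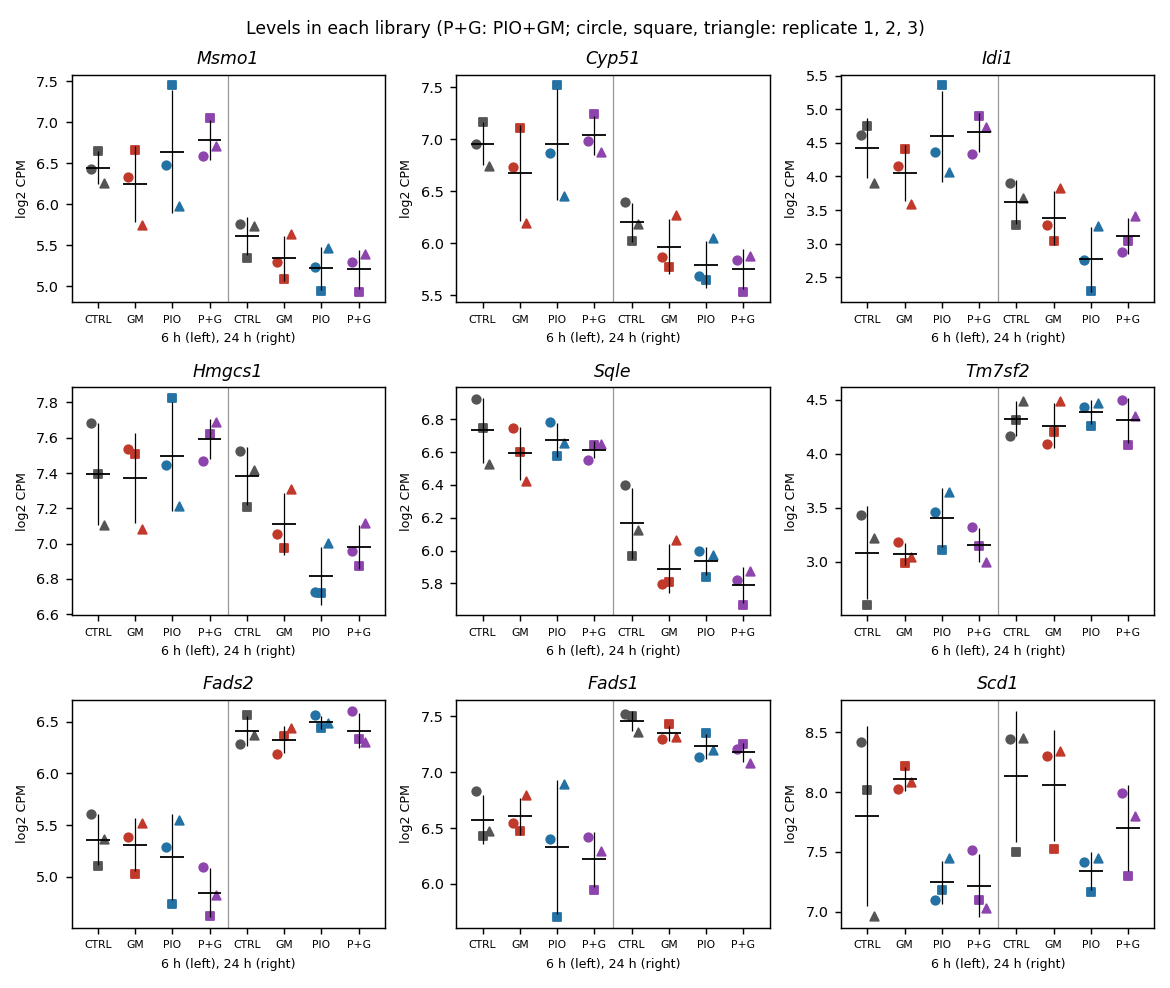
Log2 CPM of 9 genes in each library, by group, with 6 h left and 24 h right of the grey line, circles, squares and triangles for replicates 1, 2 and 3, and the mean and SD of each group in black. For Sqle, Tm7sf2, Fads2 and Fads1 the libraries of the 2 times do not overlap and for Scd1 they do.

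At 6 h, averaged over the presence and absence of gentamicin, pioglitazone changed 3 of the 34 genes, 1 higher and 2 lower (edgeR's quasi-likelihood test). Of all genes 16.1% changed, 9.25% higher and 6.83% lower. The median log2 fold change of the 34 was -0.05 and that of all genes -0.02. Acat2 was higher. Its libraries had 5.33, 5.21 and 5.19 log2 CPM in CTRL, 5.03, 5.26 and 5.05 in GM, 5.71, 5.73 and 5.49 in PIO and 5.58, 5.59 and 5.54 in PIO+GM. All 6 libraries with pioglitazone lay above all 6 without, and the log2 fold change was 0.43 (SE 0.09, adjusted p = 0.00552). The call held with each of the 12 libraries left out in turn, but not with only the groups compared in the fit (0.41, adjusted p = 0.0579, edgeR's quasi-likelihood test). Without the 3 low-GC libraries together, which leaves replicate 1 alone in PIO+GM, the change was 0.41. Of the 76-base windows of Acat2, 40.5% recur in Acat3, so counts of the pair cannot be fully separated.

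Srebf2 and Scd1 were lower with pioglitazone at 6 h. Srebf2 had 7.11, 6.54 and 6.52 log2 CPM in CTRL and 6.57, 6.54 and 6.54 in GM. It had 6.34, 5.64 and 6.48 in PIO and 6.42, 5.80 and 5.45 in PIO+GM, all below every library without the drug (log2 fold change -0.57, SE 0.15, adjusted p = 0.0183). Its 3 lowest values were those of the low-GC libraries, and 57.9% of the bases of its transcript are G or C. Without these libraries, which leaves replicate 1 alone in PIO+GM, the change was -0.23. With each library's GC trend removed it was -0.29 (adjusted p = 0.0250, edgeR's quasi-likelihood test). Leaving out CTRL 6 h replicate 1, PIO+GM 6 h replicate 2 or PIO+GM 6 h replicate 3 ended the call, as did a fit on only the groups compared (adjusted p = 0.113).

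Scd1 had 8.42, 8.02 and 6.96 log2 CPM in CTRL at 6 h and 8.02, 8.22 and 8.08 in GM. It had 7.10, 7.18 and 7.45 in PIO and 7.52, 7.10 and 7.03 in PIO+GM. CTRL replicate 3 had the lowest of these values, and otherwise every library with pioglitazone lay below those without (log2 fold change -0.77, SE 0.21, adjusted p = 0.0218, edgeR's quasi-likelihood test). Leaving out CTRL 6 h replicate 1, PIO 6 h replicate 2, PIO+GM 6 h replicate 2 or PIO+GM 6 h replicate 3 ended the call. The adjusted p was 0.0748 in a fit on only the groups compared. Without the low-GC libraries, again with replicate 1 alone in PIO+GM, the change was -0.61. The count of 3 fell to 1, Acat2, without CTRL 6 h replicate 1 or PIO+GM 6 h replicate 2 or 3, and rose to 8 without PIO+GM 6 h replicate 1 and to 9 without PIO 6 h replicate 3. Over the fits with 1 library left out, the number of all genes called ranged from 1141 to 5141.

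Markers of some cell types were lower with pioglitazone at 6 h, where 6.83% of all genes were. Of the hair cell markers 4 of 12 passed as lower (median -0.21), of the fibroblast markers 3 of 10 (median -0.40), and of the Schwann cell and endothelial markers 1 of 13 (median -0.61) and 1 of 6 (median -0.43). None of the 8 neuron markers (median -0.44), 11 macrophage markers (median -0.23), 11 supporting cell markers (median -0.15) or 6 stria markers (median -0.24) passed, and of 9 cycling cell markers 1 passed as higher (median 0.03). Their part in the changes of Acat2, Srebf2 and Scd1 was not tested.

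Separately, neither comparison at 6 h had a gene past the threshold. For PIO against CTRL, edgeR's quasi-likelihood test and DESeq2 called 0 of the 34 (0.337% of all genes by edgeR), and 4 had an unadjusted p under 0.05 against 15.2% of all genes. These were Acat2 (0.40, SE 0.13), Srebf2 (-0.55, SE 0.21), Ebp (0.37, SE 0.16) and Scd1 (-0.67, SE 0.30). For PIO+GM against GM, edgeR called 0 (1.32% of all genes), DESeq2 called Acat2, and 7 had an unadjusted p under 0.05 against 25% of all genes. The lowest p-values belonged to Acat2 (0.45, SE 0.13, adjusted p = 0.0651), Scd1 (-0.88, SE 0.30, adjusted p = 0.101) and Srebf2 (-0.60, SE 0.22, adjusted p = 0.112). Without PIO+GM 6 h replicate 1, 7 genes and 24.3% of all genes passed in this comparison.

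At 24 h the direction was more uniform, but no gene passed. Averaged over gentamicin, 26 of the 34 genes were lower with pioglitazone, with a median log2 fold change of -0.19, where the median of all genes was -0.0023. edgeR's quasi-likelihood test called 0 of them (2.79% of all genes) and DESeq2 called 3, Fdps, Fdft1 and Elovl6. At an unadjusted p under 0.05 there were 9, all lower, against 16.9% of all genes in either direction and 10.2% lower. In 2 genes, Elovl6 and Fdft1, the 6 libraries with the drug lay below the 6 without (2.98% of all genes). Markers of some other cell types were low in the same comparison: 4 of 10 fibroblast markers passed as lower (median -0.59), and 0 of 6 endothelial markers (median -0.38), 2 of 13 Schwann cell markers (median -0.28), 1 of 12 hair cell markers (median -0.27), 1 of 8 neuron markers (median -0.27) and 1 of 6 stria markers (median -0.19) had a positive value. Other lists were nearer 0 or above it, with 5 of 11 macrophage markers (median -0.10), 2 of 11 supporting cell markers (median -0.06) and 6 of 9 cycling cell markers (median 0.20) positive. Outside the fibroblast list none of these markers passed. Their part in the result was not tested.

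Elovl6 (chr3:129532386-129638495) had 5.77, 5.99 and 5.67 log2 CPM in CTRL at 24 h and 5.66, 5.81 and 5.68 in GM, against 5.36, 5.41 and 5.33 in PIO and 5.40, 5.55 and 5.18 in PIO+GM. The libraries did not overlap, and the log2 fold change was -0.39 (SE 0.11, adjusted p = 0.0527, edgeR's quasi-likelihood test). Elovl6 passed in a fit on only the groups compared (adjusted p = 0.0121), but not without the libraries with high stria markers (adjusted p = 0.122). Fdps had 5.16, 4.70 and 4.98 log2 CPM in CTRL and 4.43, 4.67 and 5.09 in GM, against 4.48, 4.27 and 4.71 in PIO and 4.37, 4.32 and 4.42 in PIO+GM. These overlapped (-0.43, SE 0.12, adjusted p = 0.0640), and Fdps passed without GM 24 h replicate 1 (adjusted p = 0.0473) or CTRL 24 h replicate 2. Fdps shares 26.7% of its exon bases with Gm43738 on the same strand. Fdft1 had -0.43 (SE 0.13, adjusted p = 0.0731), and 18.3% of its exon bases overlap Ctsb on the opposite strand. In the same 2 fits as for Elovl6, its adjusted p was 0.0236 and 0.121.

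**Figure D4:**
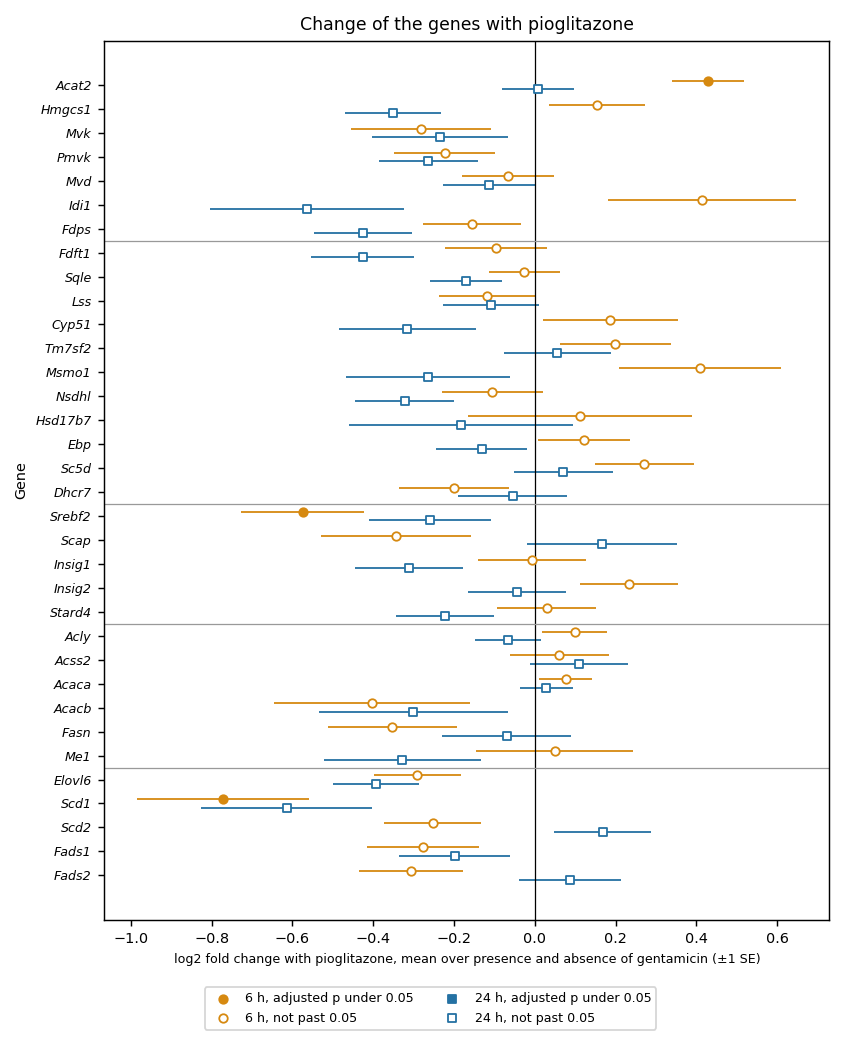
Log2 fold change with pioglitazone for each gene, averaged over the presence and absence of gentamicin, at 6 h (orange circles) and 24 h (blue squares), with bars of 1 SE and filled symbols where the adjusted p was under 0.05. At 6 h Acat2 (0.43), Srebf2 (-0.57) and Scd1 (-0.77) are filled, and at 24 h none is, with 26 of 34 points left of 0.

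Against CTRL alone, PIO at 24 h gave 29 of 34 negative values with a median of -0.23, where that of all genes was -0.01. With edgeR's quasi-likelihood test and with DESeq2, 0 genes passed (0.153% of all genes by edgeR), and 8 had an unadjusted p under 0.05, all lower, against 9.93% of all genes in either direction and 6.51% lower. In 12 genes the PIO libraries lay below the CTRL libraries without overlap (10.7% of all genes). All 7 genes of the mevalonate arm and 10 of 11 from squalene to cholesterol were negative. Hmgcs1 had the lowest p. It had 7.53, 7.21 and 7.42 log2 CPM in CTRL and 6.73, 6.72 and 7.00 in PIO, with no overlap (-0.57, SE 0.17, adjusted p = 0.203). In GM it had 7.06, 6.97 and 7.31 and in PIO+GM 6.96, 6.87 and 7.12, which overlapped. Elovl6 had -0.45 (SE 0.15, adjusted p = 0.274) and Scd1 -0.85 (SE 0.30, adjusted p = 0.315). Scd1 had 8.45, 7.50 and 8.45 log2 CPM in CTRL and 7.41, 7.16 and 7.45 in PIO at 24 h.

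With gentamicin present in both arms, no gene passed either. For PIO+GM against GM at 24 h, 23 of 34 genes were negative (median -0.13), 0 passed with edgeR's quasi-likelihood test or DESeq2 (0.11% of all genes by edgeR), and 2 had an unadjusted p under 0.05 against 7.47% of all genes. These were Fdps (-0.39, SE 0.17, adjusted p = 0.618) and Elovl6 (-0.33, SE 0.15, adjusted p = 0.640), followed by Fdft1 (-0.36, SE 0.18, adjusted p = 0.690). Scd1 had 8.30, 7.52 and 8.35 log2 CPM in GM and 7.99, 7.30 and 7.80 in PIO+GM, and the groups overlapped. Without GM 24 h replicate 3, Fdps had -0.19 and Fdft1 -0.24.

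Neither time showed that gentamicin altered the effect of pioglitazone on any of the 34 genes. The interaction called 0 genes at 6 h and 0 at 24 h with edgeR's quasi-likelihood test and with DESeq2, and 0% of all genes with edgeR at either time. At 6 h 1 gene had an unadjusted p under 0.05, Ebp (-0.51, SE 0.23), against 1.8% of all genes, followed by Mvk (-0.67, SE 0.35) and Nsdhl (0.35, SE 0.25). At 24 h there was none, against 1.21% of all genes, and the lowest p-values belonged to Hmgcs1 (0.43, SE 0.24), Insig2 (0.29, SE 0.24) and Insig1 (0.32, SE 0.27). The 95% interval for Hmgcs1 ran from -0.06 to 0.92. At 24 h 28 of 34 interaction values were positive (median 0.11), against 51.0% of all genes (median 0.0044). The same CTRL libraries enter these values, PIO against CTRL and GM against CTRL at 24 h. Their counts of positive and negative values are therefore not separate observations.

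Gentamicin against CTRL called none of the 34 genes. At 6 h edgeR's quasi-likelihood test and DESeq2 called 0 (0% of all genes by edgeR) and 0 had an unadjusted p under 0.05 (1.49% of all genes). The lowest p-values belonged to Ebp (0.28, SE 0.16), Insig1 (-0.25, SE 0.19, turning to 0.052 without CTRL 6 h replicate 1) and Idi1 (-0.38, SE 0.33). Ebp had 0.17 and Idi1 -0.59 without CTRL 6 h replicate 3, and Idi1 had -0.17 without GM 6 h replicate 3. At 24 h both tools called 0 (0.0123% of all genes by edgeR) and 2 had an unadjusted p under 0.05 (1.67% of all genes), Hsd17b7 and Sqle. At that time 32 of 34 values were negative, with a median of -0.13 where that of all genes was -0.0025. Sqle had 6.40, 5.97 and 6.13 log2 CPM in CTRL and 5.79, 5.81 and 6.06 in GM, with an overlap (-0.28, SE 0.13, and -0.15 without CTRL 24 h replicate 1). Insig1, the next by p, had 5.99, 5.61 and 5.81 in CTRL and 5.39, 5.40 and 5.61 in GM (-0.34, SE 0.19).

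Hsd17b7 had the largest difference with gentamicin among the 34. At 24 h it had 7.27, 6.00 and 7.39 log2 CPM in CTRL and 5.82, 4.86 and 6.27 in GM, and 7.21, 5.68 and 7.03 in PIO and 5.84, 5.02 and 5.86 in PIO+GM. In each of the 4 treatments the lowest value was that of replicate 2, a library with high stria markers, so that the groups overlapped through those libraries. GM against CTRL gave -1.25 (SE 0.40, adjusted p = 1, edgeR's quasi-likelihood test), with a 95% interval from -2.08 to -0.42. PIO+GM against PIO gave -1.16 (SE 0.40, adjusted p = 0.987). Averaged over pioglitazone, a comparison added after the values were seen, the change was -1.21 (SE 0.28, adjusted p = 0.0790), and DESeq2 called it. At 6 h the same average was 0.03 (SE 0.28).

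Hair cell markers were also lowest on average in these libraries. At 24 h the mean of 12 hair cell markers was 4.77, 4.28 and 4.98 log2 CPM in CTRL and 4.26, 3.70 and 4.58 in GM. It was 4.66, 3.69 and 4.65 in PIO and 4.06, 3.19 and 4.22 in PIO+GM. In every treatment replicate 2 was lowest, as for Hsd17b7. Single markers differed. Slc26a5, the motor protein of outer hair cells, had 5.45, 2.53 and 5.92 log2 CPM in CTRL and 2.99, -0.27 and 4.12 in GM, and 5.55, 2.56 and 5.16 in PIO and 3.83, 0.80 and 3.76 in PIO+GM. Ocm, the oncomodulin gene of outer hair cells, had 5.42, 2.86 and 6.09 in CTRL and 2.84, 0.98 and 4.50 in GM, and 5.22, 1.43 and 4.71 in PIO and 3.02, -1.38 and 3.06 in PIO+GM. For both, the groups with gentamicin reached lower values than those without, and the groups overlapped. Tmc1 was likewise lowest in replicate 2 of each treatment, whereas Atoh1 and Espn were highest there and Myo7a had 6.55, 6.57 and 6.36 in CTRL. For GM against CTRL at 24 h, 0 of the 12 markers passed and 4 were positive (median -0.24). The part of the hair cell markers in the difference was not tested. Without the 8 libraries with high stria markers, GM against CTRL at 24 h gave -1.28 (adjusted p = 0.0222, edgeR's quasi-likelihood test), and the averaged comparison passed without CTRL 24 h replicate 2 or PIO 24 h replicate 2.

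**Figure D5:**
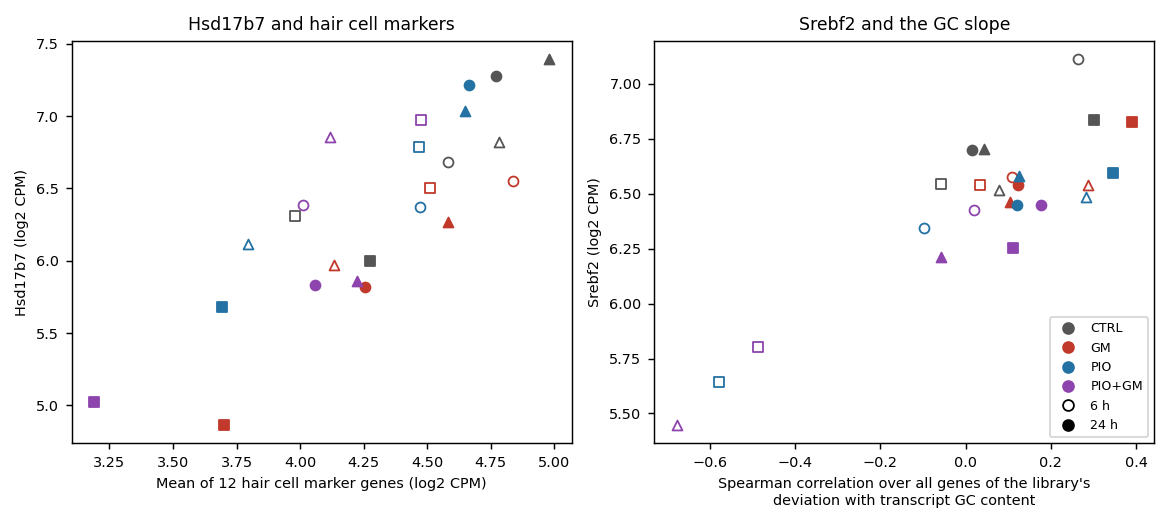
Left, log2 CPM of Hsd17b7 against the mean of 12 hair cell markers, and right, log2 CPM of Srebf2 against the Spearman correlation of each library's deviations with transcript GC content, with 1 point per library, colours for treatments, open symbols for 6 h, filled for 24 h, and circles, squares and triangles for replicates 1, 2 and 3. The replicate 2 libraries at 24 h (filled squares) lie lowest in their treatments at left, and the 3 low-GC libraries have the lowest Srebf2 values at right.

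In the remaining comparisons none of the 34 genes passed. For PIO+GM against PIO at 6 h, edgeR's quasi-likelihood test and DESeq2 called 0 (0% of all genes by edgeR), and 2 had an unadjusted p under 0.05 against 3.06% of all genes. Mvk (-0.62, SE 0.25), Mvd (-0.35, SE 0.16) and Fads2 (-0.38, SE 0.18) had the lowest p-values, each with an adjusted p of 0.998, and Fads2 had -0.18 without PIO 6 h replicate 3. At 24 h both tools called 0 (0.0735% of all genes by edgeR) and 1, Hsd17b7, had an unadjusted p under 0.05 (2.59% of all genes). Dhcr7 (-0.25, SE 0.19) and Scd1 (0.38, SE 0.30) came next, Dhcr7 with -0.07 without PIO 24 h replicate 2 and -0.38 without PIO 24 h replicate 1, and Scd1 with 0.22 without PIO+GM 24 h replicate 1. Averaged over pioglitazone, gentamicin called 0 at 6 h with both tools (0.0123% of all genes), with 0 at an unadjusted p under 0.05 (2.12%). At 24 h edgeR called 0 (0.313% of all genes), DESeq2 called Hsd17b7, 2 had an unadjusted p under 0.05 (2.83%), and 30 of 34 values were negative (median -0.08), where 49.4% of all genes were positive (median -0.0014).

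Other genes of these pathways, 53 of 54 listed being measurable, also moved in both directions over time, with 15 higher and 22 lower at 24 h on average over the treatments (31.9% and 30.7% of all genes). The elongase gene Elovl7 fell by 1.61 (SE 0.13), and Hsd17b12, which reduces elongation intermediates, by 1.24 (SE 0.06). Srebf1, the SREBP gene tied to fatty acid synthesis, rose by 0.90 (SE 0.16) and Thrsp, a lipogenic cofactor, by 1.72 (SE 0.28). At 6 h pioglitazone gave 4 higher and 7 lower (9.25% and 6.83% of all genes), among them Srebf1 (-0.69, SE 0.22) and, higher, Elovl2 (1.39, SE 0.26). These calls include the low-GC libraries, without which the change of Srebf2 in this comparison went from -0.57 to -0.23. The part of those libraries in the calls was not tested. At 24 h none of the 53 passed with pioglitazone, nor with gentamicin against CTRL at either time (edgeR's quasi-likelihood test).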

How the data were processed

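Organ of Corti libraries were sequenced by the study as single reads of 76 bases from a stranded TruSeq kit. Per the labels and the study's methods, reads were aligned to the mouse genome (mm10) with STAR, and the authors deposited whole-number counts per RefSeq gene of reads starting in an exon, made with QuasR. Strand use and the handling of reads with several positions are not given in the sources used here. Entrez identifiers were paired with symbols for 24374 of 24454 genes. The deposited counts of all 24 libraries were fitted together with edgeR 4.0.16 in R 4.3.3 (TMM factors, filterByExpr, quasi-likelihood F test, 1 mean per group). Benjamini-Hochberg adjustment ran over the 16317 genes tested, with a threshold of 0.05. Fold changes are on the log2 scale, SE is the fold change divided by the square root of F, and log2 CPM used a prior count of 2. RPKM was computed from the gene lengths deposited with the counts. Gene positions and promoters came from RefSeq, and GC content from GENCODE transcripts on GRCm38.

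The 34 genes and all gene lists were chosen with earlier results of these data known. In each comparison the genes named were those past the threshold or, where fewer than 3 passed, those with the 3 lowest p-values. Pioglitazone was compared with its matching control without or with gentamicin, gentamicin likewise, and 24 h with 6 h, with averages and interactions. Alternatives were other scalings (limma 3.58.1 underlies edgeR), DESeq2 1.42.0, other filters, a GC correction, fits on the compared groups only, a replicate block and leaving out libraries. Low-GC libraries had a correlation with GC content below -0.4 and libraries with high stria markers a mean above 4 log2 CPM. No replicates agreed within sampling noise (chi-square per degree of freedom 10.2 to 77.8). The values of some genes of the lists are not reported here. The scripts were tested on simulated data.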

Additional observations from a re-analysis of the deposited data

How the results depend on the processing

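With edgeR's quasi-likelihood test, the averaged change over time gave between 23 and 28 of the 34 genes past the threshold under the alternatives tried. Counts in other comparisons moved by over 1.5 times as follows, and the share of all genes called often moved too. A count given below without that share cannot be read as particular to the 34 genes. With the replicate block, GM against CTRL at 24 h gave 1, PIO against CTRL at 24 h 1, PIO+GM against GM at 6 h 6, averaged pioglitazone 10 at 6 h and 6 at 24 h, and averaged gentamicin at 24 h 1 (0.0735%, 1.48%, 12.2%, 27%, 7.3% and 0.509% of all genes). The 1 gene in the gentamicin comparisons was Hsd17b7 (adjusted p = 0.0326 in GM against CTRL and 0.000785 averaged). With the GC trend removed and the replicate block together these gave 1, 2, 3, 7, 10 and 1, while PIO against CTRL at 6 h gave 2, PIO+GM against PIO at 24 h 1, and GM over time 12. The replicate numbers were not taken to pair the samples, since the labels do not say so and not every same-numbered pair had a correlation of deviations over 0.1 (9 of 18 at 6 h and 15 of 18 at 24 h). The mean correlation was 0.11 for same-numbered and -0.05 for other pairs at 6 h and 0.38 and -0.18 at 24 h, where the libraries with high stria markers were all replicate 2, and 8 of 12 libraries at each time correlated best with their own number. With the GC trend removed alone, averaged pioglitazone and gentamicin at 24 h gave 2 and 1. DESeq2 gave 1 for PIO+GM against GM at 6 h, and 3 for averaged pioglitazone and 1 for averaged gentamicin at 24 h. A minimum of 10 counts in every library gave 1 for PIO+GM against GM at 6 h. Fitting only the groups compared gave 0 and 5 for averaged pioglitazone at 6 and 24 h and 6 for PIO over time. The following exclusions, and the averaged gentamicin comparison, were chosen after seeing the data. Leaving out the low-GC libraries left replicate 1 alone in PIO+GM at 6 h, so that no counts are given for that fit. In it, averaged pioglitazone at 6 h gave 0.41 for Acat2, -0.23 for Srebf2 and -0.61 for Scd1. Without the 8 libraries with high stria markers, GM against CTRL at 24 h gave 1, PIO+GM against GM at 6 h 6, PIO+GM against PIO at 24 h 1, averaged pioglitazone at 6 h 13 and averaged gentamicin at 24 h 1 (0.0244%, 18.9%, 0.0671%, 36.9% and 0.33% of all genes). The cause of these shifts was not tested. With 1 library left out at a time, counts ranged from 0 to 7 for PIO+GM against GM at 6 h, from 1 to 9 and 0 to 1 for averaged pioglitazone at 6 and 24 h, and from 0 to 1 for averaged gentamicin at 24 h. In the same order, the number of all genes called ranged from 4 to 4040, 1141 to 5141, 182 to 387 and 32 to 55. Over time the counts of the 34 genes ranged from 5 to 10 in CTRL, 4 to 8 in GM, 10 to 16 in PIO, 11 to 20 in PIO+GM and 23 to 26 averaged. The last stood beside 9840 to 10612 of all genes. The counts of the 34 genes were 0 throughout in the other comparisons. Insig1 in GM against CTRL at 6 h (-0.25) ranged from -0.50 without CTRL 6 h replicate 3 to 0.052 without CTRL 6 h replicate 1. A prior count of 0.5 moved log2 CPM of these genes by at most 0.04. Depth limits Acacb most, with 33 counts at the lowest.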

Other observations

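Of 16 listed PPAR targets 14 were measurable, and 7 of these were higher with pioglitazone at 24 h, where none of the 34 synthesis genes passed with edgeR's quasi-likelihood test and 3 did with DESeq2. The mean of the 14 at 24 h was 5.78 to 5.89 log2 CPM in PIO and 5.75 to 5.96 in PIO+GM, above the 5.03 to 5.06 in CTRL and 5.16 to 5.27 in GM. Averaged over gentamicin, 6 were higher at 6 h (9.25% of all genes were) and 7 at 24 h (2.79% of all genes were called in either direction), and none was called lower (edgeR's quasi-likelihood test). At 24 h Angptl4, an inhibitor of lipoprotein lipase, rose by 3.01 (SE 0.30), Pdk4 by 1.46 (SE 0.23) and Cpt1a, which carries fatty acids into mitochondria, by 1.09 (SE 0.08) on the log2 scale. Hmgcs1, the cytosolic HMG-CoA synthase, had -0.35 (SE 0.12) in the same comparison and did not pass.

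Of 7 LXR targets, which answer oxysterols and include cholesterol exporters, 5 rose from 6 to 24 h averaged over treatments (31.9% of all genes rose), among them Abcg1 (0.71, SE 0.10) and Abca1 (0.43, SE 0.10). With pioglitazone at 24 h Abca1 rose by 0.82 (SE 0.15), and at 6 h Abcg1 fell by 0.45 (SE 0.14). The part of the low-GC libraries in the difference at 6 h was not tested.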
